A study of Mus musculus with 6 samples.

Results

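Expression of 6 genes of the Ms4a family (Ms4a4b, Ms4a4c, Ms4a6b, Ms4a6c, Ms4a6d and Ms4a7) was examined in M-MDSCs, the monocytic kind of myeloid-derived suppressor cell, which is an immature myeloid cell able to restrain T cells. The genes were taken by name: every array probe that carries one of the 6 symbols was used, and the B cell gene Ms4a1 and the granulocyte precursor gene Ms4a3 were set aside. This gave 8 probes of 39429 on the array, 3 of them for Ms4a4c, and 6 genes of 31473. All 8 probes passed the filter on dim probes and were well above background on 3 of 3 arrays in both channels of both tissues. They lie on chromosome 19, and the mm9 positions in the files run from 11395903 to 11661485.

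The Ms4a genes encode small membrane proteins with membrane-spanning segments that sit beside immune receptors and other surface proteins and alter their signalling. CD20, the product of Ms4a1, is the best known of them. In the mouse several relatives are found in monocytes, macrophages and T cells, and Ms4a7 is widely used as a marker of tissue macrophages.

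The cells came from C57BL/6 mice and were sorted by flow cytometry from lung or bone marrow. Treated mice had received azacytidine, which inhibits DNA methyltransferases, together with entinostat, which inhibits class I histone deacetylases; their age was not given in the sources used here. Mock mice were given vehicle and were 6 to 8 weeks old. There were 3 two-colour arrays for lung and 3 for bone marrow, 6 in all, with treated RNA in Cy5 and mock RNA in Cy3. A treated sample pools 3 to 6 mice and a mock sample 1 to 2, so a treated value averages more animals than a mock value. All arrays had the same dye orientation and each tissue was on a separate slide: treatment cannot be told apart from dye, nor tissue from slide. Between 55.1% and 69.5% of probes were well above background in the treated channel of an array and between 49.9% and 62.8% in the mock channel. Of 10 genes that define M-MDSCs and myeloid cells, 9 were well above background in treated and mock cells of both tissues. The exception was Arg1, which encodes arginase and was above background on no bone marrow array.

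The 3 Ms4a4c probes are shown because they gave opposite answers. Each is 60 bases long and lies on the plus strand of chromosome 19 in mm9, at chr19:11493486-11493545 (A_55_P2135986), chr19:11500839-11500898 (A_55_P2135980) and chr19:11500973-11501032 (A_66_P106388). The last pair start 134 bases apart. Capitals mark an uninterrupted run of the dinucleotide TG, 28 bases long, which fills positions 9 to 36 of A_55_P2135980. The sequences are those of the scanner files.
A_55_P2135986: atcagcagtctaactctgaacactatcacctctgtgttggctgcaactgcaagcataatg
A_55_P2135980: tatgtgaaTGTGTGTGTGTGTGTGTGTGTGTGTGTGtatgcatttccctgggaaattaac
A_66_P106388: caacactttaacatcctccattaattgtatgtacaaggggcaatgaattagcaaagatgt

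In lung M-MDSCs the family differed between treated and mock cells in both directions. Ms4a7 rose more than 4-fold and Ms4a6d rose slightly, while Ms4a4b, Ms4a6b and Ms4a6c each fell, to between 0.707 and 0.749 of the mock level. The probes of Ms4a4c disagreed: both probes without the TG run fell and the probe with it rose. Counting each gene by its brightest probe, which for Ms4a4c is the probe with the TG run, 3 of the 6 genes passed as higher and 3 as lower, where 34% of all 22096 genes tested passed in lung (20% higher and 14% lower). With either of the other Ms4a4c probes the counts were 2 higher and 4 lower. When arrays were centred on their median without loess, the call of Ms4a7 was the only one left in lung and none was left in bone marrow.

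Ms4a7 had channel levels of 14.15, 13.80 and 14.01 in treated lung cells, against 11.74, 11.84 and 12.08 in mock lung cells, on the log2 intensity scale. Every treated value lay above every mock value. The log2 ratio of treated over mock was 2.10 ± 0.27 (SD, n = 3 arrays), a 4.28-fold difference, with an adjusted p of 6.04e-05 in limma. In bulk samples a change of this kind cannot be told apart from a change in the share of cells that carry the transcript.

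Ms4a6d, which in mouse macrophages has been described as a partner of the inhibitory receptor VSIG4, reached 12.68, 12.81 and 12.73 in treated lung cells and 12.51, 12.19 and 12.17 in mock lung cells. The groups did not overlap, but the ratio was small, 0.45 ± 0.25 (SD, n = 3 arrays), and its adjusted p in limma was 0.0307. The call was lost without lung replicate 2 (adjusted p 0.154) or lung replicate 3 (0.125) and under 4 other settings, whose adjusted p ran from 0.0951 to 0.184.

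Ms4a6b and Ms4a6c, a pair of closely related genes, fell alike. The log2 ratios of Ms4a6c on the lung arrays were -0.59, -0.28 and -0.52, a mean of -0.47 ± 0.16 (SD, n = 3) with an adjusted p of 0.00394 in limma. Those of Ms4a6b, whose product has been linked to T cell co-stimulation in the mouse, were -0.49, -0.17 and -0.59, a mean of -0.42 ± 0.22 (SD, n = 3) with an adjusted p of 0.00848. All 3 arrays had the same sign for both genes. The Ms4a6b call rested on lung replicate 3 (adjusted p 0.0515 without it), and scaling between arrays ended both calls (adjusted p 0.0573 for Ms4a6b and 0.148 for Ms4a6c).

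Ms4a4b, which encodes a membrane protein of mouse T cells that dampens their proliferation, stood at 9.46, 10.02 and 9.60 in treated lung cells, against 10.14, 10.18 and 10.27 in mock lung cells. The treated values were all lower and were spread more widely than the mock values. The ratio was -0.50 ± 0.30 (SD, n = 3 arrays), with an adjusted p of 0.0111 in limma, which became 0.0504 without lung replicate 1 and 0.061 without lung replicate 3.

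For Ms4a4c, a monocyte-expressed neighbour of Ms4a4b, probe A_66_P106388 read 11.56, 12.61 and 12.25 in treated lung cells and 13.17, 13.13 and 13.24 in mock lung cells. Its ratio was -1.05 ± 0.55 (SD, n = 3 arrays), a 2.06-fold lower level, with an adjusted p of 0.00349 in limma over all probes. Probe A_55_P2135986, which starts 7353 bases upstream of the repeat probe, had ratios of -1.21, -0.30 and -0.82, a mean of -0.78 ± 0.46 (SD, n = 3) with an adjusted p of 0.0072. Both probes thus fell on every lung array, and leaving out any array kept both calls (adjusted p up to 0.0315). The probe with the TG run had ratios of 0.72, 1.12 and 1.00, a mean of 0.94 ± 0.21 (SD, n = 3) with an adjusted p of 0.000546 over all probes.

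Counted by probe, 3 of the 8 Ms4a probes passed as higher in lung and 5 as lower, where 33.5% of all 27693 probes tested passed (19.1% higher and 14.4% lower). All 5 falling probes had their smallest fall on lung replicate 2. On that array the median treated signal of the negative control spots after background correction was 137, against 63.3 and 64.1 on the other lung arrays; its part in the result was not tested.

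**Figure D1:**
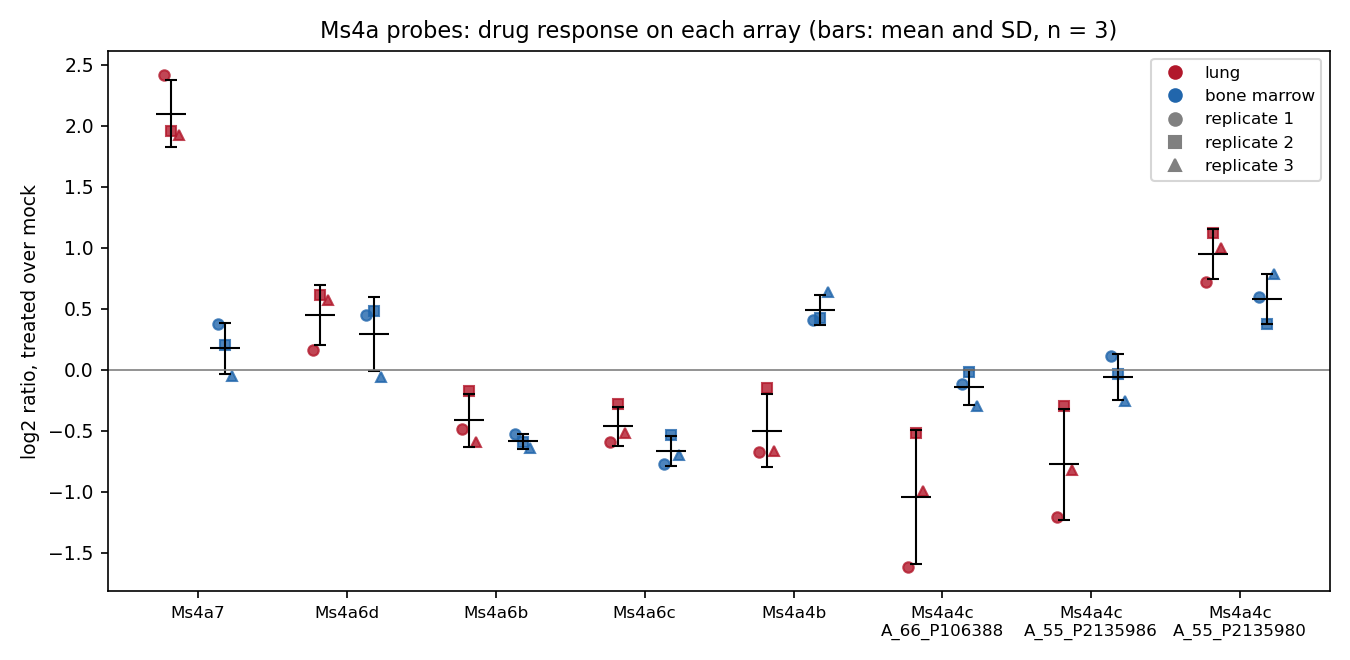
Log2 ratio of treated over mock for each Ms4a probe (vertical axis), in lung (red, left of each pair) and bone marrow (blue, right); symbols are single arrays, bars the mean and SD of 3 arrays. Ms4a7 lies near 2 in lung and near 0 in bone marrow, Ms4a4b lies on opposite sides of 0 in the 2 tissues, and the Ms4a4c probe A_55_P2135980 lies above 0 where the other Ms4a4c probes do not.

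The array was then searched for other probes with such a repeat, a comparison chosen after the Ms4a4c values were seen. Of 39429 probes, 29 (0.0735%) held an uninterrupted TG run of 28 bases or more, the Ms4a4c probe among them, and they are named for many different genes. All 29 passed as higher in treated lung cells, where 19.1% of probes did, with a median log2 ratio of 0.89 and a range from 0.80 to 1.15. In bone marrow all 29 also passed as higher, where 6.83% of probes did, with a median of 0.57 and a range from 0.50 to 0.67.

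Between mock lung and mock bone marrow all 29 passed as lower, where 37.3% of probes did, with a median of -0.70. The Ms4a4c repeat probe, at 0.94, 0.58 and -0.72 in the same 3 comparisons, lay within the ranges of the other 28 probes, which ran from 0.80 to 1.15 in lung, from 0.50 to 0.67 in bone marrow and from -0.83 to -0.62 between the mock groups. Both remaining Ms4a4c probes lay outside all 3 ranges. Over the 12 channel values the genes most like the repeat probe were Septin3, Pak4 and Ung (Pearson r = 0.998 for each), and their own probes hold TG runs of 36, 38 and 32 bases. What these probes hybridised with was not tested.

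**Figure D2:**
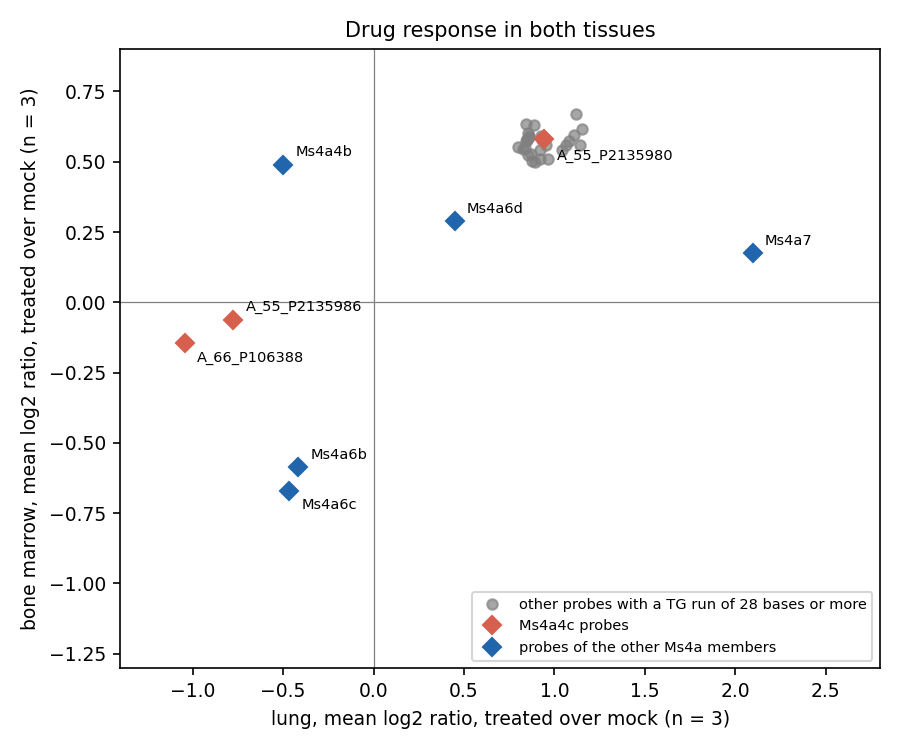
Mean log2 ratio of treated over mock in lung (horizontal axis) and bone marrow (vertical axis), n = 3 arrays each, for the Ms4a probes (diamonds) and the other probes with a TG run of 28 bases or more (grey). The repeat probe A_55_P2135980 sits within the grey cluster, whose lung values run from 0.80 to 1.15, and the remaining Ms4a4c probes sit at -1.05 and -0.78 in lung.

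In bone marrow M-MDSCs Ms4a6b and Ms4a6c were lower in treated than in mock cells, as in lung, and Ms4a4b was higher. Ms4a7 and Ms4a6d did not pass the test. By brightest probe 2 of the 6 genes passed as higher (Ms4a4b and the repeat probe of Ms4a4c) and 2 as lower, where 14.4% of all genes passed (7.25% higher and 7.14% lower). By either other probe of Ms4a4c, 1 gene was higher.

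Ms4a6c read 12.31, 12.61 and 12.50 in treated bone marrow cells, against 13.08, 13.14 and 13.20 in mock bone marrow cells. The groups were well separated, with a ratio of -0.67 ± 0.12 (SD, n = 3 arrays) and an adjusted p of 0.00386 in limma. Ms4a6b read 8.66, 8.66 and 8.48 in treated cells and 9.19, 9.25 and 9.13 in mock cells, again without overlap. Its ratio was -0.59 ± 0.06 (SD, n = 3 arrays), the tightest of the 8 probes, with an adjusted p of 0.00723 in limma. The median corrected treated signal of the negative control spots was 290.3 on bone marrow replicate 1, against 63.5 and 66 on the others, and with the background taken from these spots the ratios were -0.84 for Ms4a6b and -0.70 for Ms4a6c. Median centring without loess brought them to -0.21 (adjusted p 0.525) for Ms4a6b and -0.07 (adjusted p 0.892) for Ms4a6c.

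Ms4a4b read 10.08, 10.22 and 10.25 in treated bone marrow cells and 9.67, 9.79 and 9.62 in mock bone marrow cells. Here the treated values were all the higher ones. The ratio was 0.49 ± 0.13 (SD, n = 3 arrays), with an adjusted p of 0.0286 in limma. The call was lost whichever bone marrow array was left out (adjusted p 0.075, 0.112 and 0.126 without replicates 1, 2 and 3).

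The remaining probes were close to 0 or scattered. Ms4a7 had ratios of 0.37, 0.20 and -0.05 in bone marrow (adjusted p 0.334 in limma, 95% interval of the mean from -0.10 to 0.44), and Ms4a6d had 0.45, 0.48 and -0.06 (adjusted p 0.162, interval from -0.01 to 0.59). Bone marrow replicate 3 was the array below 0 for both. Of the Ms4a4c probes without the TG run, A_66_P106388 averaged -0.15 ± 0.14 and A_55_P2135986 averaged -0.06 ± 0.19 (SD, n = 3 arrays each), with adjusted p values of 0.608 and 0.822 over all probes, where 13.8% of probes passed.

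The response was then compared between the tissues as lung minus bone marrow. The response of Ms4a7 was 1.92 higher in lung on the log2 scale (95% interval from 1.54 to 2.31, adjusted p 0.00107 in limma), and that of Ms4a4b was 0.99 lower, with a difference of -0.99 (interval from -1.35 to -0.63, adjusted p 0.00768). Ms4a4b was thus lower in treated lung and higher in treated bone marrow, with all 3 arrays of each tissue on their own side of 0. These were the 2 genes of the 6 that passed, 1 in each direction, where 15.2% of all genes passed (9.78% higher and 5.46% lower). Median centring without loess ended both calls, at 1.81 for Ms4a7 (adjusted p 0.0881) and -1.23 for Ms4a4b (adjusted p 0.342).

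For Ms4a6b and Ms4a6c the falls in the 2 tissues were not distinguished: the differences were 0.17 (interval from -0.11 to 0.45, adjusted p 0.363) and 0.20 (interval from -0.06 to 0.47, adjusted p 0.251). Ms4a6d likewise had a difference of 0.16 (interval from -0.26 to 0.58, adjusted p 0.571). Probe A_66_P106388 of Ms4a4c responded 0.90 lower in lung, a difference of -0.90 (interval from -1.48 to -0.32), with an adjusted p of 0.0491 in limma over all probes, where 15.1% of probes passed. That p sat at the threshold: it was 0.0507 with this probe standing for Ms4a4c among genes, and leaving out lung replicate 3 or any 1 of the 3 bone marrow arrays raised it to between 0.0847 and 0.154. Probe A_55_P2135986 differed by -0.72 (adjusted p 0.0659), or by -0.96 (adjusted p 0.0184) without lung replicate 2.

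In mock cells the family differed between the tissues. Ms4a7 read 11.74, 11.84 and 12.08 in mock lung cells, against 8.89, 9.02 and 8.90 in mock bone marrow cells. That is a log2 difference of 2.95 (SE 0.10, n = 3 arrays each), or 7.75-fold, with an adjusted p of 3.03e-07 in limma. Ms4a6d averaged 12.29 ± 0.19 in mock lung cells and 10.62 ± 0.21 in mock bone marrow cells (SD, n = 3 each), a 3.19-fold difference with an adjusted p of 1.81e-05.

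Smaller differences were seen for the others. Ms4a4b was higher in mock lung by 0.50 (adjusted p 0.000672 in limma), and Ms4a6c was lower, with a difference of -0.44 (adjusted p 0.00348). For Ms4a6b the difference was 0.00 (interval from -0.28 to 0.27, adjusted p 0.979). Probes A_66_P106388 and A_55_P2135986 of Ms4a4c differed by -0.16 and -0.24 (adjusted p 0.0724 and 0.221 over all probes). By brightest probe 3 of the 6 genes passed as higher and 2 as lower, the Ms4a4c repeat probe among the lower, where 66% of all genes passed (29.6% higher and 36.4% lower), so a call in this comparison was the usual case. With the scanner software's processed signals neither gene passed as lower (Ms4a6c -0.10, adjusted p 0.585). These are levels of single channels on different slides.

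Set in order, the levels of Ms4a7 ran from treated lung (mean 13.99) through mock lung (11.89) and treated bone marrow (9.11) to mock bone marrow (8.93), and only the bone marrow groups overlapped. The order for Ms4a6d was the same, at 12.74, 12.29, 10.90 and 10.62, again with overlap between the bone marrow groups alone. Ms4a6c had its highest level in mock bone marrow (13.14), followed by mock lung (12.70), treated bone marrow (12.47) and treated lung (12.24); each of the 3 lower groups overlapped its neighbour.

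For Ms4a4b, mock lung (10.20) and treated bone marrow (10.18) overlapped at the top. Treated lung (9.70) and mock bone marrow (9.69) overlapped at the bottom. Each of these pairs differs in dye, treatment, tissue and slide, and whether their levels are equal was not tested. Like the mock comparison, all these orders set single-channel levels side by side. For Ms4a6b the neighbouring groups all overlapped, from mock bone marrow and mock lung (9.19 each) through treated lung (8.77) to treated bone marrow (8.60). Probe A_66_P106388 of Ms4a4c gave 13.35 in mock bone marrow, 13.20 in treated bone marrow and 13.18 in mock lung, which overlapped, and 12.14 in treated lung, which stood apart below them. Probe A_55_P2135986 ran in the same order, with treated lung (11.31) apart from the others (12.32, 12.26 and 12.09).

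**Figure D3:**
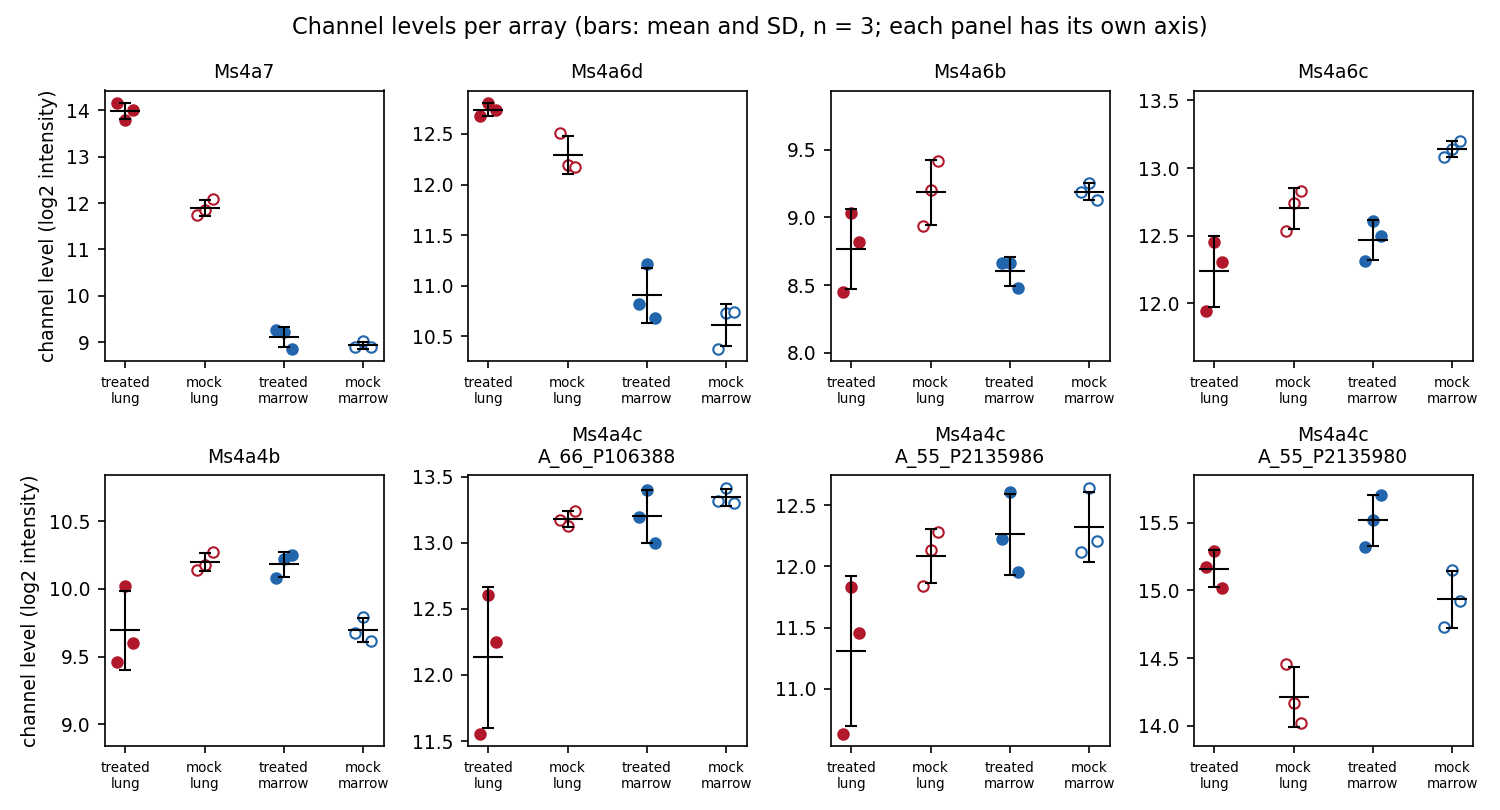
Channel level on the log2 intensity scale (vertical axis, one panel per probe) on each of 3 arrays for treated lung, mock lung, treated bone marrow and mock bone marrow; bars are mean and SD. Ms4a7 and Ms4a6d step down from treated lung to bone marrow, and treated lung is the lowest group for both Ms4a4c probes without the TG run.

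Ms4a7 and Ms4a6d were next set beside 17 macrophage markers. In lung 16 of the 17 passed as higher and none as lower, where 20% of all genes passed as higher and 14% as lower. Their median log2 ratio was 2.17, against a median of 0.01 over all genes. Mertk, a receptor for dying cells, had 2.28, the hyaluronan receptor gene Lyve1 had 2.53 and the chemokine gene Pf4 had 3.04. The ratio of Ms4a7 (2.10) was near the middle of that list and the ratio of Ms4a6d (0.45) was near its low end. In bone marrow 0 of the 17 passed as higher and 1 as lower in limma, with a median of 0.03, where 7.25% of all genes passed as higher and 7.14% as lower. Mertk, Vsig4, Folr2 and Lyve1 were well above background on no bone marrow array in either channel, so a fall of these could not have been seen.

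The mean level of the macrophage list ran from 12.26 to 12.63 over the treated lung channels, from 10.36 to 10.89 over mock lung, from 7.92 to 8.22 over treated bone marrow and from 8.16 to 8.22 over mock bone marrow, with lung above bone marrow, as for Ms4a7. In mock bone marrow 6 of the 17 markers were above background on no array. Over the 12 channel values the genes most like Ms4a7 were the complement gene C1qb (Pearson r = 0.999), Etv5 and Olfml3 (0.998 each). Those most like Ms4a6d were Septin11, Errfi1 and Tmem198b (0.988 each), and Ms4a6d and Ms4a7 had r = 0.96 with each other. The 12 values are 6 pairs of channels that share an array, so these coefficients are descriptions. The part of macrophages among the sorted cells in the Ms4a7 and Ms4a6d ratios was not tested.

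Ms4a6b, Ms4a6c and Ms4a4c were set beside 25 genes of the type I interferon response. In lung 21 of the 25 passed as lower and none as higher (median -0.79), where 14% of all genes passed as lower and 20% as higher. Among them were Xaf1 (-1.17), Oasl2 (-0.97) and Rtp4 (-1.47). In bone marrow 15 of the 25 passed as lower and none as higher (median -0.53), where 7.14% of all genes passed as lower and 7.25% as higher. Rtp4 had -1.63 there, Oasl2 -1.15 and the transcription factor gene Irf9 -0.79. Probe A_66_P106388 of Ms4a4c had -1.05 in lung and -0.15 in bone marrow. Ms4a6b (-0.42 in lung and -0.59 in bone marrow) and Ms4a6c (-0.47 and -0.67) were nearer 0 than the list's median in lung and slightly beyond it in bone marrow. The mock groups differed from this: 14 of the 25 were higher in mock lung and 4 lower (median 0.60), against 29.6% and 36.4% of all genes. Ms4a6c was lower there (-0.44). Ms4a6b (-0.004) and probes A_66_P106388 (-0.165) and A_55_P2135986 (-0.237) of Ms4a4c did not pass. Samd9l, a gene induced by interferon, was of 12430 candidate genes the most like Ms4a6b over the 12 channel values (r = 0.959). Herc4 and Sash3 followed (0.933 and 0.927). None of these is among the 25 listed genes, and a tie of Ms4a6b to the interferon response was not tested.

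The genes most like Ms4a6c were Tep1, Zfp429 and Pdcd10 (0.966, 0.963 and 0.957). For probe A_66_P106388 they were 2510016G02Rik, Snhg10 and Arhgap15 (0.974, 0.957 and 0.955), and for A_55_P2135986 they were 9630025H16Rik, Bin3 and Atg4d (0.942, 0.936 and 0.922). No gene was among the nearest 3 of both Ms4a4c probes.

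**Figure D4:**
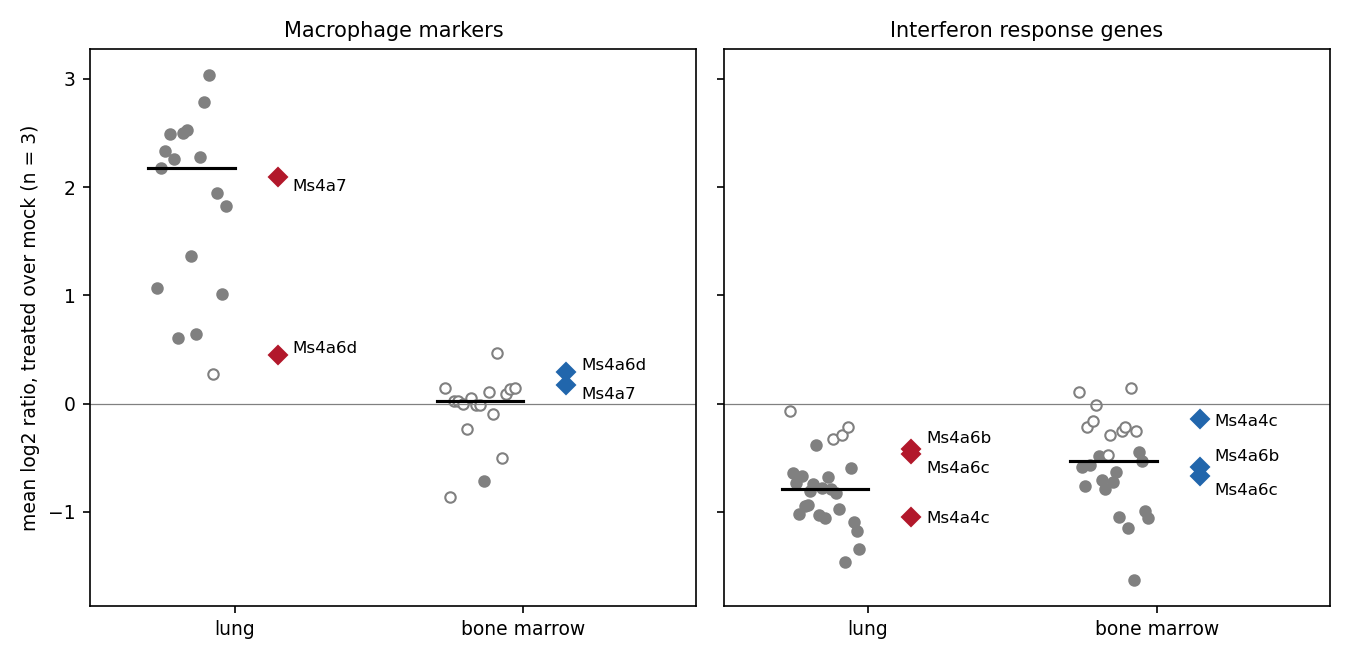
Mean log2 ratio of treated over mock (vertical axis, n = 3 arrays) in lung and bone marrow for 17 macrophage markers (left panel) and 25 interferon response genes (right panel); filled grey points passed the test, open ones did not, black lines are list medians and diamonds are Ms4a genes, with Ms4a4c shown by probe A_66_P106388. Ms4a7 lies near the macrophage median in lung, 2.17, and like that median near 0 in bone marrow. There 4 of the 17 markers were above background on no treated array and 6 on no mock array.

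Since Ms4a4b is best known from T cells, it was set beside markers of lymphocytes that a sort could carry along. Of 15 T cell markers, 1 passed as higher in treated lung (Il7r, 0.69) and 3 as lower, among them Cd3g (-0.40) and Lat (-0.50), with a median of -0.15; over all genes 20% passed as higher and 14% as lower in lung. In bone marrow, where 7.25% of all genes passed as higher, 4 of the 15 passed as higher, among them Cd5 (0.58), Cd6 (0.77) and Cd28 (0.31), and none as lower, while 11 did not pass and the median was 0.07. In mock lung relative to mock bone marrow 14 of the 15 were higher, where 29.6% of all genes were, with a median of 0.93. The medians of the NK cell list (-0.16, 0.07 and 0.55) and of the B cell list (-1.16, 0.08 and 1.41) had the same signs in these 3 comparisons. In bone marrow the medians of all 3 lists were close to the median over all genes, 0.02. In mock bone marrow 8 of the 12 NK cell markers and 5 of the 11 B cell markers were above background on no array. Which lymphocyte type, if any, the Ms4a4b values follow was not tested.

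The mean level of the T cell list was between 8.04 and 8.48 over treated lung, between 8.15 and 8.39 over mock lung, between 7.26 and 7.48 over treated bone marrow and between 7.15 and 7.24 over mock bone marrow. Of these markers 3 were above background on no mock bone marrow array (Cd3g, Il7r and Tcf7). Of 12 NK cell markers 4 passed as lower in lung, among them Gzma (-1.32), Ncr1 (-0.40) and Eomes (-0.42). In bone marrow 1 passed as higher (Klrd1, 0.47). Ncr1 was well above background on 2 mock lung arrays alone, so it passed the filter only through the group where it was higher. Klrd1 was well above background on no mock bone marrow array. Of 11 B cell markers 8 passed as lower in lung, among them Pou2af1 (-1.87), Cd79a (-1.33) and Fcmr (-1.52). Another 2 passed as higher in lung, Cd22 (0.35) and Bank1 (0.29). Over all genes 14% passed as lower and 20% as higher in lung, and 7.25% as higher in bone marrow. The genes most like Ms4a4b were Ptpn2, Gm6987 and Tctex1d2 (r = 0.896, 0.89 and 0.869 over the 12 values), lower coefficients than for any other member. The part of lymphocyte RNA in the Ms4a4b values was not tested.

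Of 9 classical monocyte markers 5 passed as lower in lung, among them the chemokine receptor gene Ccr2 (-1.12), Hp (-1.02) and F13a1 (-0.49), where 14% of all genes did. In bone marrow Ccr2 was lower (-0.84) and Ly6c1 higher (0.65), and the other markers did not pass. Over all genes 7.14% passed as lower there and 7.25% as higher. In mock lung 7 of the 9 were lower than in mock bone marrow, where 36.4% of all genes were. Of 10 non-classical monocyte markers 3 passed as higher in lung, Ace (0.52), Spn (0.42) and Treml4 (0.40), where 20% of all genes did. In bone marrow 1 of the 10, Cx3cr1, passed as lower (-1.71), where 7.14% of all genes did. In mock lung 8 of the 10 were higher and Spn was lower (-1.17), where 29.6% of all genes were higher and 36.4% lower. Of the 10 M-MDSC and myeloid genes 5 passed as higher in lung, among them Arg1 (2.42), Itgam (0.64) and Csf1r (0.76), where 20% of all genes did. In bone marrow 2 passed as lower, Csf1r (-1.14) and Spi1 (-0.38), where 7.14% of all genes did. Between the mock groups 5 were higher in lung, among them Arg1 (3.06) and Cd14 (2.71), and 2 lower, Spi1 (-3.61) and Itgam (-0.595). Over all genes 29.6% were higher there and 36.4% lower.

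The other Ms4a genes and their relatives Tmem176a and Tmem176b, which encode membrane proteins of dendritic cells and macrophages, were counted as well. Of 9 measured, 4 passed as higher in lung and 1 as lower (median 0.21), against 20% and 14% of all genes, and 2 passed as lower in bone marrow, against 7.14% of all genes. Tmem176a and Tmem176b were higher in treated lung (0.91 and 0.65), and Tmem176b was lower in treated bone marrow (-0.58), as was Ms4a8a (-0.61). Ms4a4d (0.21) and Ms4a14 (2.08) passed as higher and Ms4a1 (-2.17) as lower in lung; these 3 were well above background on no mock bone marrow array.

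The proximal promoters of Ms4a6b and Ms4a6c are shown because these 2 genes fell together in both tissues. RefSeq promoter windows with coordinates on GRCm38.p6, from 250 bases before to 50 bases after the start of each gene, were found for 5 of the 6 genes. The Ms4a6b and Ms4a6c windows, both on the plus strand, at chr19:11518309-11518608 and chr19:11469118-11469417, were 85.3% identical over 225 aligned bases. Capitals mark the longest run they share, 48 bases.
Ms4a6b: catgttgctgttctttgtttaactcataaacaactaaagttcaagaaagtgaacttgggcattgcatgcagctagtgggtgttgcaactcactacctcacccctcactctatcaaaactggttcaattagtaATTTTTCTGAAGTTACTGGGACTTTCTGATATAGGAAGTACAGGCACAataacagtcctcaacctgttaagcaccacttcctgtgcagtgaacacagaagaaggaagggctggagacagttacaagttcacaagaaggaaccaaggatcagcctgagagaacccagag
Ms4a6c: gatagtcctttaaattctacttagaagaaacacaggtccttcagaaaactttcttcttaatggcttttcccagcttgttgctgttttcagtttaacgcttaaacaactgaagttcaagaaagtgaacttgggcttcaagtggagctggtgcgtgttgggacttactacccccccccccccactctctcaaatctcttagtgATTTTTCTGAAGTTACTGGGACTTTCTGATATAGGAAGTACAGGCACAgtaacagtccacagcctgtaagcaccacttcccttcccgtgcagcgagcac

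The Ms4a4b and Ms4a4c windows were 81.9% identical over 281 aligned bases, with a longest shared run of 20 bases. Ms4a4b and both Ms4a4c probes without the repeat fell in treated lung, while in bone marrow Ms4a4b rose and those probes did not pass. The other pairs of windows were between 58.4% and 66.8% identical. On both strands, the ETS core GGAAGT occurred 2 times in each of the Ms4a6b and Ms4a6c windows and 1 time in each of the Ms4a4b and Ms4a4c windows. Of the 2 Ms4a7 windows 1 held it, and 23.8% of 32851 mouse promoter windows hold it. These are letter matches only.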

How the data were processed

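The deposited scanner output holds, per the file headers, raw and local background intensity of each spot from Agilent Feature Extraction 10.7.3.1 with mm9 positions, and the log10 ratio of its processed signals. The deposited matrices hold log2 ratios, which per the submitters' processing notes were made with limma; no version or setting is given in the sources used here. They correlate at 0.9995 or more with Cy5 over Cy3 on each array, although their headings name mock over treated; the dyes were followed.

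Here limma 3.58.1 in R 4.3.3 applied normexp (offset 50) to mean signals and median backgrounds and loess within arrays, with control spots at weight 0. Outlier spots were dropped; no Ms4a spot was one, and none was saturated. Probes had to be well above background on 2 or more arrays of at least 1 tissue and channel (27693 of 39429 kept). Each gene took its brightest probe. The 6 arrays were fitted with 1 mean per tissue (4 residual and 3.52 prior degrees of freedom), and mock levels after equalising mean intensities. Adjusted p values are limma's two-sided moderated tests with Benjamini-Hochberg adjustment over all genes, or over all probes where a Ms4a4c probe is named, at a threshold of 0.05; both tissues share 1 spread per gene. The labels call the 3 arrays of a tissue biological replicates. The fits were tested on simulated data. Biopython 1.88 aligned the promoters. Array number limits the precision.

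All members were named with every probe; of each marker list the text gives counts, the median and up to 3 genes with the smallest p, and for likeness the 3 genes with the highest Pearson r. The members and lists were chosen with earlier results of these data known. Alternatives were other background corrections, scalings, probe rules, filters, left-out arrays and the replicate number as a block.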

Additional observations from a re-analysis of the deposited data

Results flagged for a closer look

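Several responses differed between the tissues by the test of the difference itself (lung minus bone marrow, limma over all genes). Ms4a7 differed by 1.92 and Ms4a4b by -0.99. Ms4a4b had opposite signs in the 2 tissues. Probe A_66_P106388 of Ms4a4c differed by -0.90 in the fit over probes. Among the relatives, Tmem176a differed by 1.35 and Tmem176b by 1.23. Ms4a14 differed by 2.14 and Ms4a1 by -2.38, but neither was well above background in bone marrow, so the bone marrow side of these 2 differences was not measured.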

How the results depend on the processing

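The rise of Ms4a7 in treated lung (1.94 to 2.36) and its higher mock level in lung (2.86 to 3.42), like that of Ms4a6d (1.56 to 2.01), passed under every alternative run. Median centring without loess moved the median of all genes to 0.12 (lung) and 0.20 (bone marrow), against 0.01 and 0.02. It called 963 genes in lung, 0 in bone marrow and 33 for the difference, against 7510, 3180 and 3368 (in bone marrow 3951 genes had an unadjusted p under 0.05). Under it 1 member was higher and 0 lower in lung, neither direction held any in bone marrow (0 of 6), and the difference held 0, where Ms4a7 had 1.81 (adjusted p 0.0881). It also turned the differences of Ms4a4c (repeat probe) to -0.08, Ms4a6c to -0.15 and Ms4a6d to -0.08, and the bone marrow ratios of A_66_P106388 and A_55_P2135986 to 0.49 and 0.51. It left the lung falls of these probes at -0.79 and -0.55 (adjusted p 0.249 and 0.337). Scaling between arrays left 1 member higher in bone marrow and 1 lower in lung. The scanner software's processed signals called 6335 genes in bone marrow, left 0 members lower in mock lung, and gave 0.28 and 0.06 there for A_66_P106388 and A_55_P2135986. Averaging the probes of a gene left 1 member higher in bone marrow and gave Ms4a4c -0.29 in lung and -0.42 for the difference. With A_66_P106388 or A_55_P2135986 for Ms4a4c, an alternative added after seeing the data, the lung ratios were -1.05 and -0.78, the bone marrow ratios -0.15 and -0.06 and the differences -0.90 and -0.72; 1 member was then higher in bone marrow and 1 lower in mock lung. Counted by probe, 5 were lower in lung and 2 for the difference. For A_66_P106388 the difference lost its call with the negative control background (adjusted p 0.0958) and the processed signals (0.0684). Leaving out 1 array gave between 0 and 2 members higher in bone marrow and between 1 and 3 lower in lung. Over left-out arrays Ms4a6d's difference ran from -0.02 to 0.30 and Ms4a6b's mock difference from -0.12 to 0.12. The sign turned for Ms4a6d's difference (-0.02) and A_55_P2135986's bone marrow ratio (0.04) without bone marrow replicate 3, and for Ms4a6b's mock difference at 0.03 without bone marrow replicate 2 and 0.12 without lung replicate 1. The causes were not tested.

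Same-numbered lung and bone marrow arrays did not deviate together (correlations 0, 0.12 and 0.05). With 3 arrays per tissue these correlations cannot tell whether equal numbers mark samples of the same mice. With the replicate number as a block no member's call changed: in lung 3 members were higher and 3 lower, Ms4a7 had 2.10 (adjusted p 0.00042), and in bone marrow 2 were higher and 2 lower.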
